A study of Mus musculus with 10 samples.

Results

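Genes for the tight, adherens, desmosomal and gap junctions of epithelia were followed through 10 RNA-seq libraries of cells sorted from mouse liver. Protein-coding genes were taken by symbol: the numbered claudins, the other tight junction membrane proteins, the plaque and polarity proteins beneath them, the numbered cadherins apart from Cdh1 and Cdh2, the catenins, the desmosomal cadherins and plaque proteins, and the alpha and beta connexins. This gave 97 of 29972 genes with a value. HpC1 to HpC4 were hepatocyte-derived peripheral cholangiocytes from Alb-Cre+/-;Rbpjf/f;Hnf6f/f mice, of ages P124, P151, P144 and P139 in postnatal days. The pC1 to pC3 libraries were peripheral cholangiocytes from Rbpjf/f;Hnf6f/f mice without Cre, aged P151, P119 and P142, and H1 to H3 were hepatocytes from Alb-Cre+/-;Rbpjf/f;Hnf6f/f mice, aged P134, P139 and P139. All mice carried the floxed alleles of Rbpj and Hnf6 on a mixed C57BL/6, FVB and CD1 background, and the Cre was driven by the albumin promoter, which acts in hepatocytes and their embryonic precursors. HpC and pC were sorted by flow cytometry from nonparenchymal cells and H after perfusion alone. Genotype and sort thus both differ between pC and H. HpC and pC differ in genotype as well as in cell origin, and these cannot be told apart. HpC and H share a genotype and differ in how the cells were obtained. The labels do not say whether H2 and H3, which share an age, came from separate animals; p-values measure the spread between libraries, which may in part be technical.

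Epithelial cells are held together by 4 kinds of junction. Claudins form the strands of the tight junction and set which ions and solutes pass between cells; occludin and the tricellular proteins sit beside them, and zonula occludens and cingulin proteins tie the strands to actin. Cadherins bind neighbouring cells at the adherens junction through catenins, desmogleins and desmocollins do so at the desmosome through plakoglobin, plakophilins and desmoplakin, which anchor keratin filaments, and connexins form channels between cells. In the liver the tight junctions between hepatocytes seal the bile canaliculus, those between cholangiocytes seal the duct that drains it, and hepatocytes are coupled mainly by the connexins encoded by Gjb1 and Gjb2. The question asked of the files was whether cholangiocytes made from hepatocytes carried the junction genes of ordinary cholangiocytes, of hepatocytes or of both.

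Values are TPM, an abundance corrected for transcript length, summed per gene and then rescaled between libraries (scaled TPM), so that levels of different genes can be set side by side. The files hold no read numbers, so the depth behind each value is unknown. The 8 cholangiocyte markers summed to 1556 to 2589 scaled TPM in HpC, 5296 to 5525 in pC and 40.6 to 51.4 in H, and the 8 hepatocyte markers to 3026 to 5783, 1156 to 2645 and 75891 to 87699. The gap in the cholangiocyte sum came from Spp1: the other 7 summed to 811 to 1566 in HpC and 1115 to 1240 in pC. Spp1 and Prom1 were among the markers lower in HpC than in pC by limma, while Krt7 (0.84, adjusted p = 0.0509) and Krt19 (0.49, adjusted p = 0.422) had higher means in HpC and did not pass. A pair of HpC libraries stood apart. HpC1 held 216277 scaled TPM of 8 pancreatic acinar genes, against at most 937 elsewhere, and HpC2 held 40224 of 10 genes of stratified squamous epithelium, against 3.56 to 12.7 elsewhere. Results are therefore also given without HpC2, and without both where a call changed. In sorted bulk samples, fewer cells of a type and less RNA per cell cannot be told apart.

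Between 46 and 58 members reached 1 deposited TPM in an HpC library, 51 to 56 in a pC library and 30 or 31 in an H library. With a filter of at least 1 TPM in at least 3 libraries, 58 members were tested and 39 were not; Gja3, Cdh19 and Cldn16 were listed at 0 in every library. At 10 scaled TPM or more in every library of a group stood 30 members in HpC, 30 in pC and 22 in H.

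The claudin genes that separated cholangiocytes from hepatocytes by the widest margin were Cldn4, Cldn7 and Cldn6, and the claudin with the largest difference the other way was Cldn1. The 250 bases before their start sites are printed to show the regions that carry, or lack, the E-box CACCTG, the sequence bound by the Snail and Zeb repressors of epithelial genes. They come from RefSeq on GRCm38.p6, run 5' to 3' on the gene's strand, and show in capitals each match to CACCTG or its reverse complement CAGGTG. Cldn4 lies on the minus strand (chr5:134946935-134947184), Cldn6 on the plus strand (chr17:23679115-23679364), Cldn7 on the plus strand (its downstream start of 2, chr11:69965171-69965420) and Cldn1 on the minus strand (chr16:26371840-26372089).
Cldn4: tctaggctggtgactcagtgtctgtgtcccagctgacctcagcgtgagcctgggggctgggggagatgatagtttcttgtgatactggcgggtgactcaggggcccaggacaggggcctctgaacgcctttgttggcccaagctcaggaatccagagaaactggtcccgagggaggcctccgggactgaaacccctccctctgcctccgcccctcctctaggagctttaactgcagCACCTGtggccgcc
Cldn6: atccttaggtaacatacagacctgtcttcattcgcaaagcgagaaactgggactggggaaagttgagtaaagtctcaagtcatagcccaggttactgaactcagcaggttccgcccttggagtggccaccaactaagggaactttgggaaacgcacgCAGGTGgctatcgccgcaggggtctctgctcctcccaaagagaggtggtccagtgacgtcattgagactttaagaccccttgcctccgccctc
Cldn7, downstream start: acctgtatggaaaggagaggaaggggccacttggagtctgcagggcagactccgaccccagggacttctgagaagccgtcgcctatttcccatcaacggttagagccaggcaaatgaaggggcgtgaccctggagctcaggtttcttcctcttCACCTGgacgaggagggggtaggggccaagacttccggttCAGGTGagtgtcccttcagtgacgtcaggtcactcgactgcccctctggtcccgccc
Cldn1: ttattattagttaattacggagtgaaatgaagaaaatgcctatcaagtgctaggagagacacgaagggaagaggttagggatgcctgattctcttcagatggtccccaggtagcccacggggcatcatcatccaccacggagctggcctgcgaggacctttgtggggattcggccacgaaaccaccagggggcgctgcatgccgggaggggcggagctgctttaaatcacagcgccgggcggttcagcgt
The match began 14 bases before the start of Cldn4 and 93 before that of Cldn6. The downstream start of Cldn7 had matches at 97 and 57 bases and its upstream start none, and the Cldn1 window had none. Of the 97 members, 64 matched the RefSeq table, with 89 windows between them; 19 of these (21.3%) held the E-box, against 5657 of all 32851 windows (17.2%). The 16 members with a match also included the hepatocyte connexin genes Gjb1 and Gjb2 and the hepatocyte claudin gene Cldn14, whose levels ran opposite to those of Cldn4, Cldn6 and Cldn7. A match is a description of the letters and shows no binding.

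Few junction genes differed past the threshold between hepatocyte-derived and ordinary cholangiocytes, and those described belonged to the desmosome and the claudins. Of the 58 members tested, 3 were higher in HpC, among them Dsg1a and Cldn11, while 1 was lower (Cldn8) and 54 did not pass, by limma with Benjamini-Hochberg adjustment over all 14765 genes tested at 5%. This was 6.9% of the members tested, where 4.54% of all genes passed, 1.99% higher and 2.55% lower. The median difference of HpC minus pC over tested members was 0.09 on the log2(scaled TPM + 1) scale, and -0.01 over all genes. Without HpC2 there were again 3 higher and 1 lower, now of 56 tested (4.64% of all genes passed), with Dsc2 in place of Cldn11, which the filter removed. On TPM as deposited 2 members were higher and 2 lower, and of all genes past the threshold 26.1% were higher, against 43.8% after rescaling. At an unadjusted p under 0.05 stood 22 members (37.9%), 9 of them claudins, and 17.8% of all genes. In scaled TPM the ranges of HpC and pC did not overlap for 15 of the 58 members (25.9%), 9 with HpC above and 6 with HpC below, while 16.5% of all genes had ranges that did not overlap.

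Markers of other cells also differed between the sorts. The summed hepatocyte markers of HpC lay above those of pC, but 0 of the 8 passed limma's test (1 had an unadjusted p under 0.05) and none was at 0. Alb carried the gap: the other 7 summed to 415 to 1338 scaled TPM in HpC and 374 to 664 in pC, and on TPM as deposited the sums of all 8 overlapped, at 3486 to 8172 and 1834 to 4040. The 6 mesothelial markers summed to 33.1 to 54.6 scaled TPM in HpC and 24.3 to 30.9 in pC, with 3 higher and 1 lower. The 7 stellate and fibroblast markers summed to 22.2 to 84.2 and 19.3 to 29.3, with 1 higher. Endothelial markers summed to 9.87 to 18.6 and 10.1 to 12.7, and leukocyte markers to 10.6 to 26.1 and 16.3 to 19.4, with 0 of 6 and 0 of 2 tested ones past the threshold and 0 at an unadjusted p under 0.05. The part of these markers in the differences between HpC and pC was not tested.

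**Figure D1:**
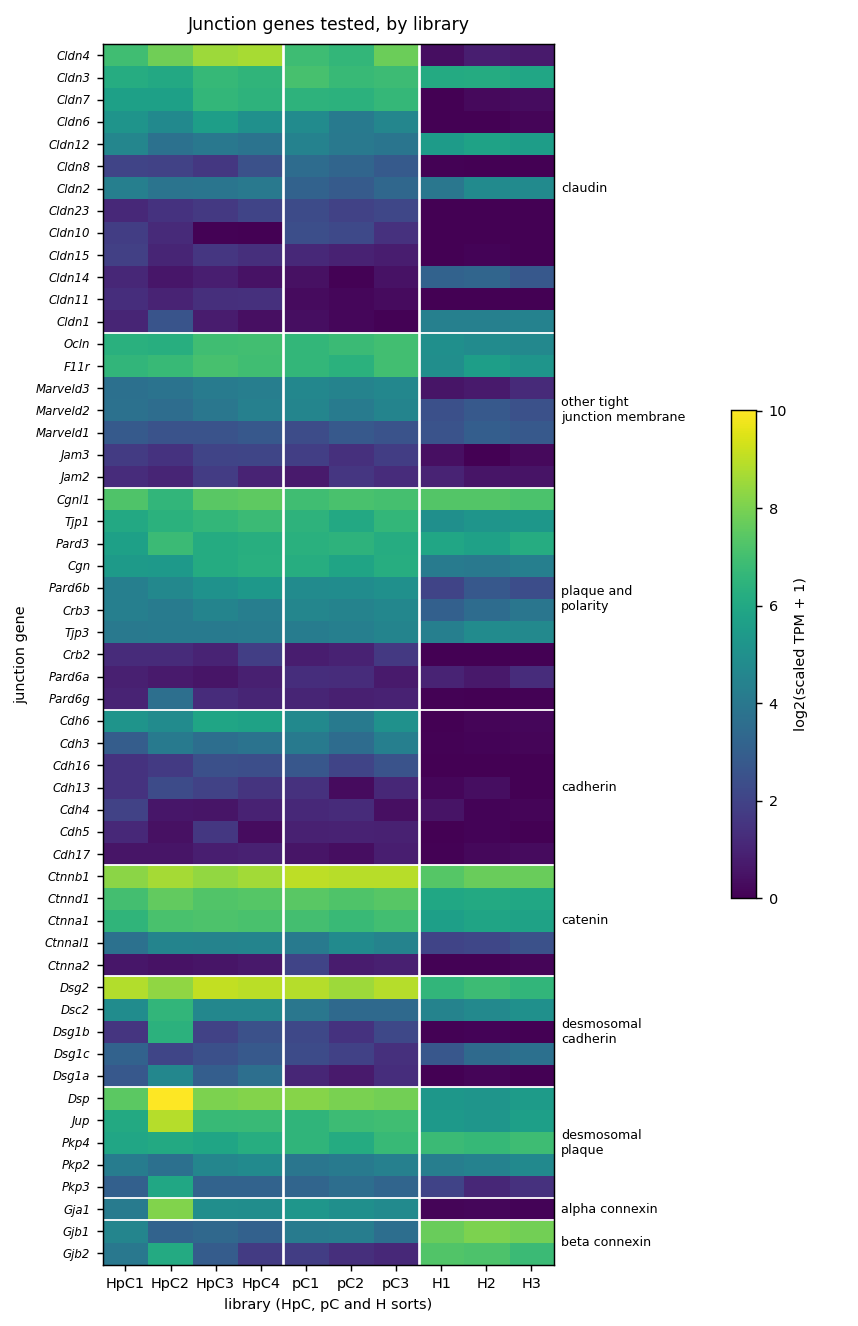
Level of each of 55 tested junction genes (rows, grouped by family and ordered by level) in each of the 10 libraries (columns), coloured by log2(scaled TPM + 1). The HpC and pC blocks look alike apart from the HpC2 column, where Dsp, Jup, Gja1 and Dsg1b are brighter, and the H block is dark for Cldn4, Cldn6, Cldn7, Cdh6 and Gja1 and bright for Gjb1, Gjb2 and Cldn1.

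The desmosome held the member with the largest difference past the threshold. Dsg1a (ENSMUSG00000069441, mm10 chromosome 18, 20310811 to 20343350, plus strand) encodes a desmoglein 1, a desmosomal cadherin best known from the upper layers of skin. Its scaled TPM were 5.80, 24.1, 6.96 and 11.6 in HpC1 to HpC4, then 1.13, 0.666 and 1.49 across pC1 to pC3, and 0, 0.0857 and 0.0268 across H1 to H3. Every HpC library was above every pC library, and HpC2 was the highest. The log2 difference was 2.47 ± 0.39 (SE; limma adjusted p = 0.00632), and it was 2.12 ± 0.25 without HpC2 (adjusted p = 0.00258). The summed squamous markers of the other 3 HpC libraries, 6.79 to 8.21 scaled TPM, lay within the range of pC, 3.56 to 11.8. Sprr3 of that list was at 0 in all 3, and Ivl, which was not highest in HpC2, held 1.27, 5.32 and 3.72. The part of squamous markers in the level of Dsg1a was not tested. Dsg1a shared 35% of its 50-base windows with Dsg1b and Dsg1c, so that reads of this length can be split between the copies and its value is uncertain as that of a single gene. Its call held under every alternative tried.

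Dsc2 encodes desmocollin 2, the desmocollin of simple epithelia. Its 28.0, 95.7, 23.7 and 23.4 scaled TPM in HpC all exceeded the 14.5, 9.67 and 9.80 of pC, and H held 21.4, 24.9 and 31.3. With HpC2 included the spread was wide and the difference of 1.57 ± 0.44 did not pass (limma adjusted p = 0.0787). Leaving HpC2 out gave 1.13 ± 0.20, which passed (adjusted p = 0.0135), and leaving out HpC1 as well gave 1.06 (adjusted p = 0.0411). After rescaling, HpC1, HpC3 and HpC4 lay within the range of H for Dsc2 and above that of pC (HpC minus H 0.44, adjusted p = 0.403). On TPM as deposited they stood at 18.7, 34.4 and 37.8, above the 12.4 to 15.8 of H but with HpC1 below the 22.1 of pC1, and HpC minus H passed (1.52, adjusted p = 0.0112). The main desmoglein of simple epithelia, Dsg2, did not follow: it stood at 456, 321, 543 and 498 scaled TPM in HpC and 477, 373 and 477 in pC, with overlapping ranges and a difference of 0.02 ± 0.20 (-0.41 on TPM as deposited, neither past the threshold). The third copy of desmoglein 1, Dsg1c, stood at 3.22 to 7.82 in HpC, 1.62 to 3.88 in pC and 5.60 to 11.8 in H; HpC minus pC was 0.74 and missed the threshold (limma adjusted p = 0.264).

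Of the 5 desmosomal plaque genes tested, 0 passed between HpC and pC by limma, and Pkp4 had an unadjusted p under 0.05. Desmoplakin, encoded by Dsp, links the plaque to keratin and stood at 177, 1025, 261 and 286 scaled TPM in HpC and at 287, 252 and 231 in pC. Plakoglobin, encoded by Jup and shared by desmosome and adherens junction, stood at 66.6, 479, 106 and 108 in HpC and at 91.2, 115 and 122.7 in pC. HpC2 was far above the other 9 libraries for both genes, and the differences of 0.42 and 0.34 turned to -0.08 and -0.22 without it. On TPM as deposited they were -0.01 and -0.08. The plakophilins Pkp2 (0.17), Pkp3 (0.47) and Pkp4 (-0.45) had limma adjusted p-values of 0.777, 0.743 and 0.190. The direction of Pkp2 also turned on TPM as deposited, to -0.23.

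Connexins form the channels of gap junctions. Gjb2, one of the hepatocyte connexins, stood at 15.2, 67.8, 6.44 and 2.35 in HpC and at 2.55, 1.56 and 1.22 in pC. The lowest HpC library lay inside the range of pC, and the difference of 2.25 ± 0.80 did not pass (limma adjusted p = 0.170). Without HpC2, the highest library, it was 1.47 (adjusted p = 0.150) and with HpC1 left out too 0.92 (adjusted p = 0.247), while without HpC4, the lowest, it was 2.87 and passed (adjusted p = 0.0395). The other hepatocyte connexin, Gjb1, showed no such difference: 22.6, 8.21, 9.54 and 7.67 in HpC against 16.8, 17.7 and 11.2 in pC (-0.43 ± 0.33, limma adjusted p = 0.544).

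Gja1, which encodes connexin 43 and is the most widespread connexin, was the most abundant connexin gene in each cholangiocyte library but HpC1, where Gjb1 exceeded it. It stood at 16.7, 276, 29.7 and 29.2 scaled TPM in HpC and at 37.5, 31.0 and 26.5 in pC, and at 0.0785 to 0.129 in H. Its difference of 0.51 ± 0.75 between HpC and pC (limma adjusted p = 0.773) rested on HpC2, without which it was -0.32 ± 0.23 (adjusted p = 0.562). The other 6 alpha connexins were not tested. Of them the vascular connexin genes Gja4 and Gja5 stood at no more than 0.444 and 0.172 scaled TPM in HpC, and Gja5 reached 1.33 in pC3.

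Of 13 claudins tested, 1 was higher and 1 lower in HpC than in pC. Cldn8 (ENSMUSG00000050520, mm10 chromosome 16, 88560828 to 88563183, minus strand), a claudin best known from the distal kidney tubule, had 3.18, 2.95, 2.10 and 4.62 scaled TPM in the HpC libraries and 10.6, 8.71 and 6.17 in the pC libraries, and reached 0.0379 in H1 only. The highest HpC value was below the lowest of pC. The difference was -1.18 ± 0.23 (limma adjusted p = 0.0173) and -1.13 ± 0.25 without HpC2 (adjusted p = 0.0361). Without pC1 (-1.01, adjusted p = 0.0832), without pC2 (-1.14, adjusted p = 0.0838), without HpC1 and HpC2 together (-1.14, adjusted p = 0.0849) and in a fit of both groups alone (-1.20, adjusted p = 0.0614) it did not pass.

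Cldn11 (ENSMUSG00000037625, mm10 chromosome 3, 31149920 to 31164324, plus strand), known from myelin and the Sertoli cells of the testis, was low throughout. It stood at 1.46, 0.999, 1.56 and 1.63 scaled TPM in HpC, at 0.227, 0.126 and 0.222 in pC, and at 0 in H. The groups did not overlap, and the difference was 1.01 ± 0.16 (limma adjusted p = 0.00620). It passed the filter through HpC2, HpC3 and HpC4 alone, so that it could only have been tested because HpC was high, and it dropped out of the test when any of these was left out. With no filter it passed again, while on TPM as deposited it narrowly missed (1.04, adjusted p = 0.0521).

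Of the claudins found in hepatocytes, Cldn2, Cldn1 and Cldn14 had higher means in HpC than in pC without passing. Those with the largest shares of claudin TPM in H, Cldn3 (40.1%) and Cldn12 (29.0%), did not go the same way. Their differences of HpC minus pC were -0.52 and -0.08 (limma adjusted p = 0.159 and 0.882). Cldn2, which forms a pore for cations and water and marks leaky epithelia, stood at 19.1, 13.3, 13.9 and 15.3 scaled TPM in HpC, at 7.78, 6.25 and 9.12 in pC, and at 14.7, 26.4 and 26.3 in H. After rescaling, all HpC values of Cldn2 exceeded all of pC and overlapped with H. The difference between HpC and pC was 0.91 ± 0.23 (limma adjusted p = 0.0546). It passed without H1 (0.92, adjusted p = 0.0240), with protein-coding transcripts only (adjusted p = 0.0430), in a fit of both groups alone (adjusted p = 0.0433) and with array weights (adjusted p = 0.0169). On TPM as deposited it shrank to 0.53 (adjusted p = 0.337), and HpC1 (12.8) lay below pC3 (14.5). Cldn1, a barrier-forming claudin of hepatocytes, stood at 1.06, 5.02, 0.717 and 0.320 in HpC, at 0.299, 0.122 and 0.0450 in pC and at 19.3 to 20.8 in H, with no overlap of HpC and pC, though the difference did not pass (limma adjusted p = 0.253) and was 0.55 without HpC2. Cldn14, also a hepatocyte claudin, stood at 1.16, 0.530, 0.785 and 0.402 in HpC, at 0.356, 0.0389 and 0.393 in pC and at 5.66 to 8.68 in H (0.44, limma adjusted p = 0.324). Cldn2, Cldn1, Cldn14 and Dsc2 were 4 of the 9 members whose HpC values all lay above those of pC after rescaling. Each had a higher mean in H than in pC after rescaling; on TPM as deposited the pC minus H difference of Cldn2 was 0.05 and that of Dsc2 0.34, neither past the threshold. As deposited, Cldn14 overlapped between HpC and pC, with HpC2 at 0.610 TPM and pC3 at 0.624. The hepatocyte marker sum, carried by Alb, was above in HpC as well, with 0 of 8 markers past the threshold, and its part in these differences was not tested.

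The claudin genes with the largest mean shares of claudin TPM in both cholangiocyte sorts, Cldn4, Cldn3 and Cldn7, did not pass between HpC and pC. Neither did Cldn6 and Cldn10. Cldn4, which tightens epithelia against ions, stood at 120, 230, 369 and 409 scaled TPM in HpC and at 117, 98.5 and 218 in pC, with a difference of 0.90 ± 0.42 (limma adjusted p = 0.298). HpC1 lay inside the range of pC and HpC2 just above it, and without these 2 libraries the difference was 1.54 and passed (adjusted p = 0.0399). Cldn3 stood at 72.4, 64.6, 103 and 91.8 in HpC and at 133.7, 106 and 114 in pC, lower in HpC without overlap (-0.52 ± 0.18, limma adjusted p = 0.159). Cldn7 stood at 50.3, 50.2, 97.5 and 87.8 against 88.3, 85.6 and 101 (-0.42 ± 0.25, adjusted p = 0.425). Cldn6, a claudin of embryonic epithelia, stood at 35.3, 26.1, 48.3 and 31.4 in HpC and at 27.0, 16.0 and 23.2 in pC (0.65 ± 0.23, limma adjusted p = 0.166). On TPM as deposited the differences of Cldn4 and Cldn6 shrank to 0.47 and 0.24, while with array weights they were 1.42 and 1.01 and passed (adjusted p = 0.0186 and 0.0163). Cldn10, an ion-channel-forming claudin, was uneven within HpC, at 2.50, 1.26, 0.0389 and 0, against 4.36, 3.59 and 1.68 in pC. Its difference of -1.25 ± 0.43 did not pass (limma adjusted p = 0.156), but without HpC1 it was -1.64 and passed (adjusted p = 0.0401), and without HpC1 and HpC2 it was -2.04 (adjusted p = 0.0112). With all libraries, Cldn10 also passed as lower on TPM as deposited (-1.81, adjusted p = 0.0200) and with array weights (-1.82, adjusted p = 0.00597).

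**Figure D2:**
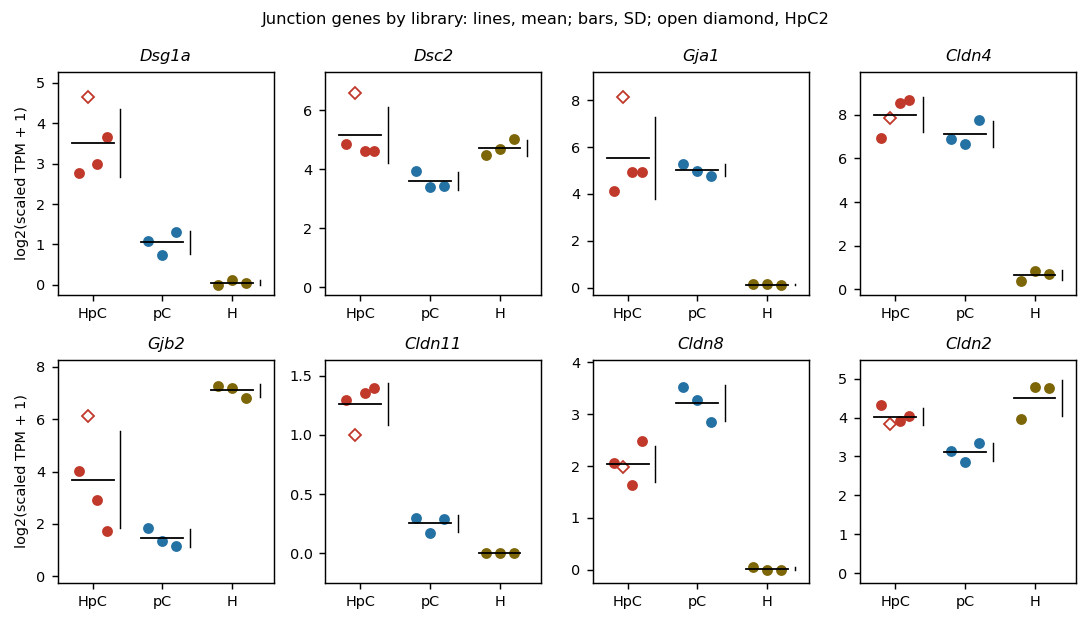
Levels of 8 junction genes as log2(scaled TPM + 1) on the vertical axis, with 1 point per library in HpC (red), pC (blue) and H (brown), horizontal lines at the group means and vertical bars for the SD. All 4 HpC points of Dsg1a, Dsc2, Cldn11 and Cldn2 lie above pC, and all 4 of Cldn8 below it; HpC2, the open diamond, is the highest HpC point for Dsg1a, Dsc2, Gja1 and Gjb2 and the lowest for Cldn11.

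The remaining tight junction genes, 7 membrane proteins and 11 tested plaque and polarity proteins, had 0 members past the threshold between HpC and pC by limma, and 2 membrane proteins (Marveld2 and Marveld3) at an unadjusted p under 0.05; with array weights 0 of them passed either. Occludin, encoded by Ocln, stood at 81.4, 77.1, 121 and 123.3 scaled TPM in HpC and at 97.0, 111 and 125 in pC (-0.16 ± 0.20, limma adjusted p = 0.720). Tjp1, which encodes the scaffold ZO-1, stood at 64.3, 82.4, 98.7 and 111 against 87.6, 65.1 and 98.0 (0.08 ± 0.21, adjusted p = 0.874), and on TPM as deposited its difference was -0.34 and again did not pass. The ranges overlapped for both. Tricellulin, encoded by Marveld2 (-0.52), its relative Marveld3 (-0.60) and the scaffold gene Tjp3 (-0.23) were lower in the HpC mean, with adjusted p-values of 0.225, 0.137 and 0.483. The HpC range of Marveld3, 11.9 to 18.3, lay below that of pC, 21.2 to 24.0. The adhesion molecule gene F11r (0.18), the cingulin gene Cgn (-0.28) and the polarity genes Pard3 (-0.10), Pard6b (-0.03) and Crb3 (-0.25) had adjusted p-values between 0.557 and 0.959; on TPM as deposited F11r turned to -0.24. Cgn shared 17.2% of its 50-base windows with other genes.

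Of 7 cadherins and 5 catenins tested, 0 passed between HpC and pC by limma, and 2 of each family had an unadjusted p under 0.05; with array weights Cdh6, Cdh13 and Ctnnb1 passed. Beta-catenin, encoded by Ctnnb1, binds cadherin tails and also carries the Wnt signal. It stood at 305, 407, 337 and 393 scaled TPM in HpC and at 515, 486 and 491 in pC, all HpC values below all of pC, with a difference of -0.47 ± 0.16 (limma adjusted p = 0.143). Ctnna1, which joins beta-catenin to actin, stood at 92.8, 138.7, 146 and 140 against 130, 108 and 123.6 (0.08 ± 0.18, adjusted p = 0.846), turning to -0.34 on TPM as deposited. Ctnnd1, the p120 catenin gene, had a difference of -0.05 ± 0.16 (adjusted p = 0.903). Cdh6 encodes kidney cadherin and was the most abundant cadherin gene of the members, at 34.8, 27.0, 57.3 and 53.5 in HpC and 25.9, 15.9 and 32.8 in pC (0.77 ± 0.30, limma adjusted p = 0.209); on TPM as deposited the difference was 0.36 (adjusted p = 0.631). The intervals left by these standard errors do not show that the levels were equal.

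A set of desmosomal and gap junction genes came almost wholly from HpC2. High in HpC2 alone were the squamous desmoglein gene Dsg3 at 118 scaled TPM, the desmocollin genes Dsc3 at 85.4 and Dsc1 at 15.4, the plakophilin gene Pkp1 at 224, and the skin connexin gene Gjb6 at 51.4. Elsewhere Dsg3 reached 0.129, Dsc3 0.210, Dsc1 0.0699, Pkp1 0.618 and Gjb6 0.0598. Dsg1b stood at 85.4 in HpC2 and at 1.94, 2.92 and 4.62 in the other HpC libraries, against 1.79 to 3.55 in pC. These 6 of 97 members were over 10 times higher in HpC2 than in every other library, as were 253 of all 29972 genes. All but Dsg1b failed the filter and were not tested, and for Dsg1b HpC minus pC was 1.16 ± 0.96 (limma adjusted p = 0.577).

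The same library was also the highest of all 10 for genes that other cholangiocytes express: Dsp at 1025, Jup at 479, Gja1 at 276, Dsc2 at 95.7 and Pkp3 at 60.7 scaled TPM. In all, HpC2 was the highest library for 21 of the 97 members (21.6%) and for 3473 of all 29972 genes (11.6%). The squamous marker genes Krt13, Krt5 and Trp63 stood at 31991, 784 and 67.7 there; elsewhere Trp63 reached 0.0501, and Sprr3 was at 0 in all 9 other libraries. Of the 10 squamous markers 9 were highest in HpC2, the exception being Ivl, at 4.50 in HpC2 and 8.41 in pC3. Their part in the junction gene levels of HpC2 was not tested. The plakophilin set shows the size of the change: Pkp1 made up 61.6% of plakophilin TPM in HpC2 and at most 0.490% elsewhere, while Pkp4 made up 18.4% there and 64.8% to 83.8% elsewhere.

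**Figure D3:**
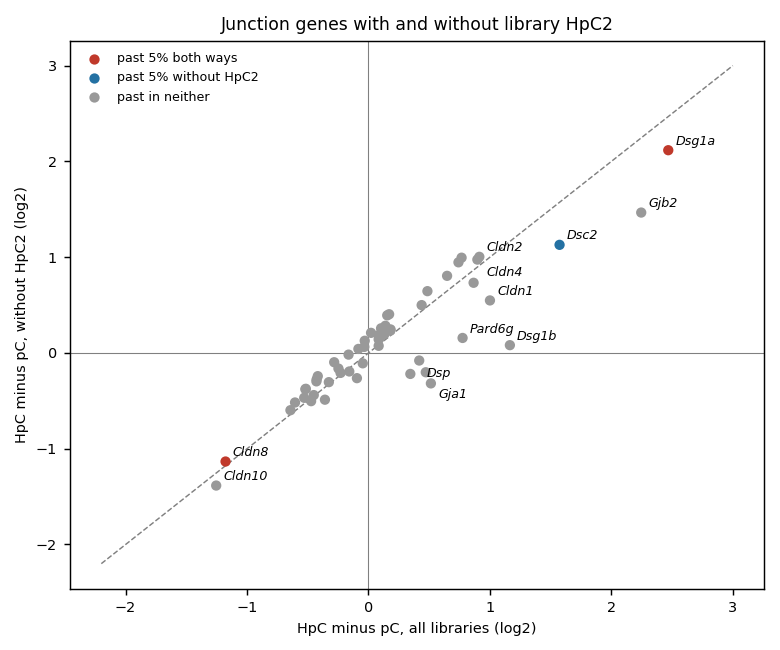
Log2 difference of HpC minus pC for 54 junction genes tested both ways, with all libraries on the horizontal axis and without HpC2 on the vertical axis; the dashed line marks equal values. Dsg1a and Cldn8 pass both ways, Dsc2 passes only without HpC2 (1.57 against 1.13), and Gja1 and Dsp move from above 0 to below it.

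Against hepatocytes, most junction genes of both cholangiocyte sorts were higher. Of the 58 members tested, 38 (65.5%) were higher in HpC than in H, 7 (12.1%) were lower and 13 did not pass, where 30.7% of all genes were higher and 29.2% lower. In pC 32 (55.2%) were higher than in H, 7 lower and 19 did not pass, where 31.1% and 28.6% of all genes were. The median difference over members was 1.32 for HpC and 1.14 for pC, against 0.08 and 0.11 over all genes. These 2 comparisons share the H libraries, and 27 of the 58 members passed the filter without reaching 1 TPM in any H library, so the counts describe the libraries and are no separate support for each other. TPM as deposited moved the median of all genes to 0.87 and 1.20 and gave 45 members higher and 4 lower for HpC and 46 and 4 for pC, with 7553 genes higher and 1519 lower for HpC and 9361 and 1255 for pC, where 4528 and 4314, and 4590 and 4216, had passed after rescaling. Without HpC2 the counts were 37 higher (66.1%) and 6 lower of 56 for HpC, and 37 higher (66.1%) and 8 lower for pC. Of all 14609 genes then tested, 4854 were higher and 4127 lower for HpC, and 5077 and 4161 for pC. The larger count of higher members in HpC than in pC was thus not seen without HpC2.

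Several claudin genes of the cholangiocyte sorts were scarce in H. Cldn4 stood at 0.305, 0.775 and 0.637 scaled TPM in H1 to H3 and averaged 282 ± 133 in HpC (SD, n = 4) and 145 ± 64.3 in pC (n = 3), a log2 difference from H of 7.35 ± 0.42 for HpC (limma adjusted p = 3.03e-07) and 6.46 ± 0.44 for pC (adjusted p = 1.02e-06). Cldn7 stood at 0, 0.196 and 0.245 in H and Cldn6 at 0, 0 and 0.0872, below every cholangiocyte library by a wide margin. Cldn7 was higher by 5.92 in HpC and 6.34 in pC, and Cldn6 by 5.11 and 4.46. Smaller differences in the same direction were passed by Cldn8 (2.02 and 3.20) and Cldn23 (1.59 and 2.12). Cldn3 was shared by all 3 sorts: H held 67.9, 69.9 and 60.3, inside or near the HpC range, and pC was higher than H (0.82 ± 0.19, limma adjusted p = 0.00418). For HpC the difference of 0.30 ± 0.18 did not pass (adjusted p = 0.173), but it passed without HpC2 (0.53, adjusted p = 0.0208), without HpC1 and HpC2 together (0.68, adjusted p = 0.00419) and on TPM as deposited (1.42, adjusted p = 0.00597). Cldn3 did not pass between HpC and pC.

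Adhesion genes followed. Cdh6, at 0 to 0.141 scaled TPM in H, was higher by 5.29 ± 0.30 in HpC and 4.52 ± 0.32 in pC, and Cdh3, which encodes P-cadherin, stood at 0.0433 to 0.0906 in H, 6.67 to 16.1 in HpC and 10.5 to 18.7 in pC, a difference of 3.53 and 3.89. Cdh16 was at 0 in all H libraries and at 1.80 to 4.47 in HpC and 3.17 to 5.50 in pC. Gja1 was higher by 5.38 ± 0.75 in HpC and 4.87 ± 0.80 in pC. Dsp was higher by 3.08 ± 0.48 and 2.66 ± 0.51, and Dsg2, at 94.3 to 116 in H, by 2.13 and 2.11. Marveld3 was higher by 3.15 and 3.76, and Pard6b, of the complex that sets apical polarity, by 2.47 and 2.50. Ocln (1.80 and 1.96) and Tjp1 (1.29 and 1.21) were detected in every library and were higher in both cholangiocyte sorts. The catenin genes Ctnna1 (1.26 and 1.18), Ctnnd1 (1.32 and 1.36) and Ctnnb1 (0.89 and 1.37) were too. All the differences from H given for these cadherin, connexin, desmosome, tight junction and catenin genes, and those of Cldn4, Cldn6, Cldn7, Cldn8 and Cldn23, passed limma's test at 5% in both sorts.

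Some of the smaller calls were lost when 1 library was left out. Jup was higher in HpC than in H (1.69 ± 0.54, limma adjusted p = 0.0200), but without H1 (adjusted p = 0.0527) or H2 (adjusted p = 0.0634) it did not pass. Without HpC2, its highest library, the difference of Jup was smaller with a smaller SE, and it passed (1.21 ± 0.22, adjusted p = 0.00124). The endothelial cadherin gene Cdh5, at 0.267 to 2.11 scaled TPM in HpC and 0.870 to 0.931 in pC, was higher than in H by 0.85 and 0.88 (limma adjusted p = 0.0263 and 0.0304), and lost the HpC call without HpC1, H1, H2 or H3 (highest adjusted p = 0.0673) and the pC call without any 1 library of pC or H (highest adjusted p = 0.0727). The endothelial markers, 9.87 to 18.6 in HpC, 10.1 to 12.7 in pC and 2.88 to 3.39 in H, move with Cdh5, and their part in its level was not tested. Cdh17 was higher in HpC by 0.53 (limma adjusted p = 0.0283), lost without H1 (adjusted p = 0.0957) or H2 (adjusted p = 0.0665). Pkp3 was higher in pC by 1.85 (limma adjusted p = 0.0351), lost without any 1 of pC1, pC2, pC3, H2 or H3 (highest adjusted p = 0.101). All groups share the same estimate of the spread in the fit, and HpC2 stood far above the other libraries for Pkp3. With HpC2 left out, the difference of pC from H was 1.90 ± 0.23 and passed (adjusted p = 8.55e-05).

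Hepatocytes exceeded both cholangiocyte sorts in a short list of channel and claudin genes. Gjb1, which encodes connexin 32, stood at 209, 262 and 235 scaled TPM in H1 to H3, 7.67 to 22.6 in HpC and 11.2 to 17.7 in pC. It fell by 4.31 on the log2 scale in HpC (SE 0.33, limma adjusted p = 1.87e-06) and by 3.88 in pC (SE 0.35, adjusted p = 6.33e-06). Gjb2, which encodes connexin 26, stood at 154, 146 and 112 in H and was lower by -3.41 ± 0.80 in HpC and -5.65 ± 0.85 in pC. Cldn1 was lower by -3.18 and -4.18, and Cldn14 by -2.29 and -2.73. These 4 genes were lower in both sorts under each of the 3 scalings. Not so Cldn12, singled out after its values were seen because it was the second largest claudin share of hepatocytes: at 44.2, 53.5 and 46.0 in H it was lower after rescaling (-1.57 in HpC and -1.49 in pC), but on TPM as deposited the difference was -0.48 for HpC and 0.02 for pC and did not pass. Cldn2 was lower in pC (-1.40 ± 0.24, limma adjusted p = 0.000677), which on TPM as deposited became 0.05, and did not pass in HpC (-0.48, adjusted p = 0.0918), where on TPM as deposited it turned to 0.58 (adjusted p = 0.113). Tjp3 was lower in HpC by -0.50 (limma adjusted p = 0.0171), a call lost under 7 of 21 alternatives. It was lost without HpC2 (adjusted p = 0.0636), H2 (adjusted p = 0.0743), H3 (adjusted p = 0.0578) or HpC1 and HpC2 together (adjusted p = 0.128), with median of ratios scaling (adjusted p = 0.0591) and in a fit of both groups alone (adjusted p = 0.0783), and it turned to 0.58 on TPM as deposited.

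Shares within a family do not depend on the scaling between libraries, because they are ratios within a library. In H the claudin TPM was split between Cldn3 (40.1% ± 3.14, SD, n = 3), Cldn12 (29.0% ± 0.723), Cldn2 (13.5% ± 3.64) and Cldn1 (12.1% ± 1.18), with Cldn4 at 0.342% ± 0.128. In pC the means were 33.6% ± 9.10 for Cldn4 (n = 3), 28.6% ± 4.79 for Cldn3 and 22.2% ± 2.32 for Cldn7; Cldn3 exceeded Cldn4 in pC1 (32.0% against 28.1%) and pC2 (30.6% against 28.6%), and Cldn4 led in pC3 alone. In HpC the order of means was Cldn4 (52.4% ± 11.4, n = 4), Cldn3 (16.7% ± 3.37) and Cldn7 (13.8% ± 1.34). The Cldn3 share was 13.9% to 21.6% in HpC and 23.1% to 32.0% in pC, and the Cldn7 share 12.2% to 15.0% and 20.5% to 24.8%, both without overlap. For Cldn4 the share in HpC1 (35.7%) was below that of pC3 (44.1%), so that the groups overlapped. A larger share of Cldn4 lowers the others by construction. No test was made of these shares.

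Connexin shares turned over between the sorts. Gjb1 (63.1% ± 5.14) and Gjb2 (36.8% ± 5.11) made up nearly all connexin TPM of H. In pC, Gja1 made up 63.1% ± 2.14 and Gjb1 30.2% ± 3.82, and Gjb2 3.46% ± 0.768. In HpC, Gja1 ranged from 28.2% in HpC1 to 66.0% in HpC4, Gjb1 from 1.94% in HpC2 to 38.1% in HpC1, and Gjb2 from 5.31% in HpC4 to 25.7% in HpC1. The Gjb2 share was larger in every HpC library than the largest in pC, 4.35%. HpC1, the library with acinar genes, had the connexin make-up with the most Gjb1 and Gjb2 of the cholangiocyte libraries, and the part of those genes in it was not tested. As levels, the 6 beta connexins summed to 373 ± 31.5 scaled TPM in H, 56.5 ± 60.8 in HpC (26.6 ± 14.0 without HpC2) and 17.9 ± 4.25 in pC. Dsg2 made up 91.2% to 96.6% of desmosomal cadherin TPM in all cholangiocyte libraries but HpC2 (42.9%), and 68.5% to 77.7% in H, where Dsc2 was 16.5% to 22.7%.

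**Figure D4:**
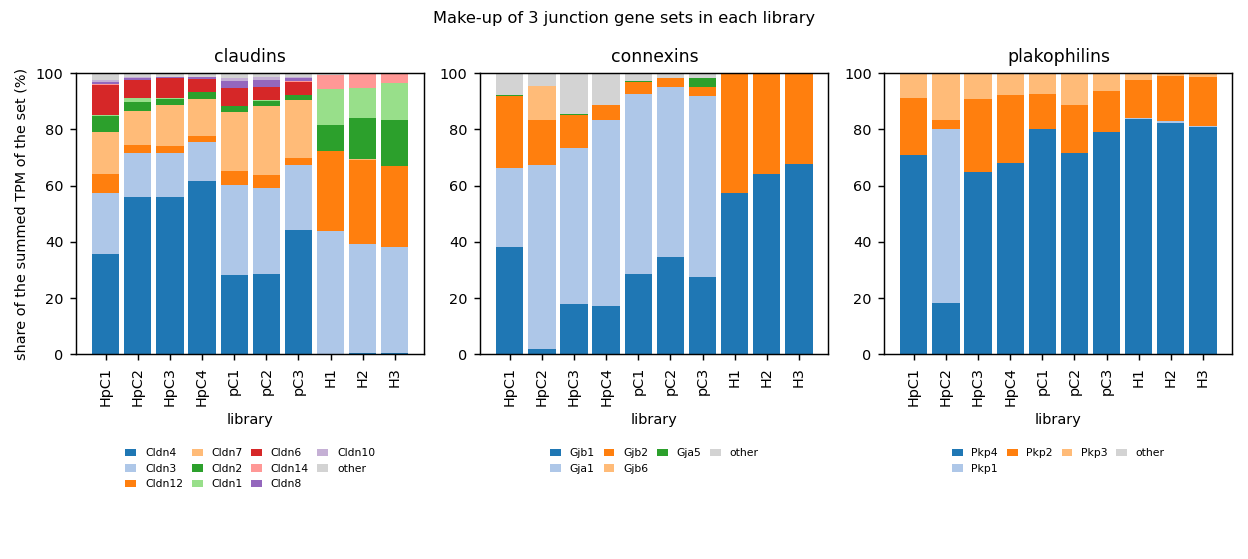
Share of the summed TPM of the claudins, the connexins and the plakophilins (vertical axis, percent) taken by each gene in each of the 10 libraries (horizontal axis), with the remaining genes of a set summed in grey. Cldn4 is the largest claudin share in every HpC library, Cldn3 is the largest in H, Gja1 gives way to Gjb1 and Gjb2 in H, and Pkp1 is visible in HpC2 alone, at 61.6%.

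In the family sums that follow, the means of both cholangiocyte sorts exceeded that of H, while the order of HpC and pC varied. Claudins summed to 517 ± 168 scaled TPM in HpC (SD, n = 4), 419 ± 74.4 in pC (n = 3) and 165 ± 12.6 in H (n = 3). Catenins summed to 670 ± 96.5, 805 ± 32.2 and 313 ± 31.0, and the desmosomal cadherins to 593 ± 108, 461 ± 62.8 and 137 ± 14.5. Tight junction plaque and polarity genes summed to 497 ± 89.4, 489 ± 23.3 and 314 ± 10.4, the smallest contrast of any family between cholangiocytes and H. The desmosomal plaque sum of HpC was 788 ± 723 with HpC2 and 429 ± 90.3 without it, against 482 ± 15.5 in pC. The ranges of HpC and pC overlapped for each of these families except the catenins, where the highest HpC sum was 760 and the lowest pC sum 773.

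The 39 members that were not tested included 14 of 21 cadherins, 10 of 23 claudins, 6 of 7 alpha connexins, 4 of 9 desmosomal cadherins and 2 of 6 beta connexins, and 1 each of the catenins, the desmosomal plaque genes and the plaque and polarity genes. Apart from the HpC2 genes Dsg3, Dsc3, Dsc1, Pkp1 and Gjb6, the largest single deposited values among them were 2.45 TPM for Gjb5, again in HpC2, and 2.11 for Gja5, in pC3. Cldn22 and Cldn24 shared 100% and 68.9% of their 50-base windows with other genes, so that their low values are uncertain.

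A further 46 junction genes outside the members were listed by role, with earlier results of these data known. Of these, 41 were tested: 4 were higher and 1 was lower in HpC than in pC (1.99% and 2.55% of all genes). Against H, 29 were higher and 6 lower in HpC (30.7% and 29.2% of all genes), and 29 higher and 7 lower in pC (31.1% and 28.6%). The tricellular junction, where 3 cells meet, is organised by the angulins, encoded by Lsr, Ildr1 and Ildr2, which recruit the tricellulin of Marveld2. Ildr1 stood at 4.04, 3.04, 4.31 and 5.86 scaled TPM in HpC and at 14.4, 12.8 and 9.37 in pC, with at most 0.0426 in H, and was lower in HpC (-1.32 ± 0.21, limma adjusted p = 0.00606). Ildr2 went the other way, at 3.60, 3.36, 3.34 and 4.37 in HpC against 0.843, 0.583 and 0.438 in pC (1.53 ± 0.16, limma adjusted p = 0.00089), and H held 19.0, 24.3 and 22.1. HpC thus lay between pC and H for both, and the groups did not overlap. Lsr was at similar levels in HpC and pC, 55.3 ± 7.10 and 48.4 ± 1.59, and at 148 ± 13.7 in H. Of the hepatocyte markers, 0 of 8 passed between HpC and pC, though their sum, carried by Alb, was above in HpC; their part in the level of Ildr2 was not tested.

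Among the adherens junction genes on that list, Cdh2, N-cadherin, is the base of a further comparison: it stood at 17.0, 6.85, 9.85 and 8.49 scaled TPM in HpC, 2.33, 1.78 and 0.8292 in pC and 36.4, 38.5 and 41.5 in H, while Cdh1, E-cadherin, stood at 185 to 309 in HpC, 318 to 370 in pC and 22.6 to 33.4 in H without passing between HpC and pC (-0.40, limma adjusted p = 0.363). Nectin1, an adhesion receptor of the adherens junction, stood at 15.5, 39.5, 15.0 and 11.5 in HpC, 5.20, 6.16 and 6.44 in pC and 28.1 to 35.2 in H (HpC minus pC 1.47 ± 0.34, limma adjusted p = 0.0376), and the channel gene Panx1 at 6.85, 11.4, 8.22 and 7.98, 3.93, 4.53 and 4.78, and 0 in H (0.81 ± 0.17, adjusted p = 0.0272). Ildr1, Ildr2, Cdh2, Nectin1 and Panx1 all passed again without HpC2 and without HpC1 and HpC2 together. Nectin4 stood at 1.02, 29.2, 1.29 and 2.86 in HpC and 6.58, 5.89 and 6.97 in pC, and passed as lower only without HpC2 (-1.50 ± 0.24, limma adjusted p = 0.00854; -0.63 with it, adjusted p = 0.717).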

How the data were processed

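RNA was measured in 10 libraries of sorted mouse liver cells (4 HpC, 3 pC, 3 H), made with a low-input kit and read as single ends of 50 bases, per the labels' protocols. The authors deposited 1 table of TPM per library for 85276 Ensembl transcripts. Per the submitters' processing notes, kallisto, DESeq and mm10 were used, without versions or roles. Each table sums to the same total, so the deposited TPM carry no depth, and neither a counting error nor a detection limit can be worked out. Of the transcripts, 81927 matched the GENCODE M21 annotation of mm10 and were summed to 29972 genes; the 3349 unmatched ones, 4.22% to 9.06% of TPM, were left out.

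The filter kept the 14765 genes that reached 1 TPM in 3 or more libraries. TPM were rescaled between libraries by an unweighted trimmed mean of log ratios (30% of ratios and 5% of mean levels trimmed at each end), with factors of 0.668 to 1.61 in HpC, 1.53 to 1.59 in pC and 0.499 to 0.585 in H. Groups were compared on log2(scaled TPM + 1), which understates changes of low genes, with limma 3.58.1 (R 4.3.3, trend in the prior variance) fitted once to all 10 libraries, two-sided, with Benjamini-Hochberg adjustment over all genes at 5%. The procedure was tested on simulated data in which all groups started from the pC mean levels, with normal noise and changes added in HpC. Those data held no outlying library like HpC1 or HpC2 and no contrast like that of cholangiocytes with hepatocytes. They therefore do not show how the procedure handles either. The design had allowed for normalised values in place of counts, and DESeq was not used here. The 50-base windows each member shares with other genes were counted in the GENCODE transcripts, and promoter windows were read from a RefSeq table. Python 3.11.15, with pandas 2.3.3, made the tables, and matplotlib 3.10.9 the figures.

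Named were each member past the threshold between HpC and pC, the 12 members past it with the largest differences in each comparison with H, a fixed list by role, and each member over 10 times higher in HpC2 than elsewhere; Cldn12, Pkp4, Dsg1c, Cldn22, Cldn24 and the further junction genes were chosen beside these. Values of 3 tested members are not reported here, and the counts include them. The members, the gene lists, the cell type markers and the tests were chosen with earlier results of these data known. There were 21 alternatives (scaling, pseudocounts of 0.1 and 0.5, filters, protein-coding transcripts only, libraries left out, array weights, a replicate block); their effect is given in the closing part.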

Additional observations from a re-analysis of the deposited data

Results flagged for a closer look

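In groups of 4 libraries, a member was singled out when the gap of its highest or lowest library to the next, divided by the whole range, exceeded Dixon's 95% critical value; only HpC has such a size, and chance flags about 1 in 20 groups. Of 49 members examined, HpC2 stood apart for 13, each time as the highest library, and HpC1 for 2, while HpC3 and HpC4 did so for 0. In scaled TPM the HpC2 values were, for the desmosomal genes, 15.4 for Dsc1, 95.7 for Dsc2, 85.4 for Dsc3, 85.4 for Dsg1b, 118 for Dsg3, 1025 for Dsp, 479 for Jup, 224 for Pkp1 and 60.7 for Pkp3. For the connexin genes they were 276 for Gja1, 2.13 for Gjb5 and 51.4 for Gjb6, and for the claudin gene Cldn1 it was 5.02. In HpC1, Gjb1 stood high at 22.6 and Ctnna1 low at 92.8.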

How the results depend on the processing

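Of the named members past the threshold, 1 of 4 between HpC and pC, 34 of 38 between HpC and H and 29 of 32 between pC and H stayed past it under every alternative in which they were tested. The count of members changed between HpC and pC, 4, became 7 with protein-coding transcripts only and 14 with array weights, and ran from 2 to 6 when libraries were left out in turn. It was 2 without HpC3 and 2 without pC2. The count of genes changed between HpC and pC, 671, became 393 in a fit of both groups alone and 1797 with array weights, and ran from 271 (without pC2) to 794 (without HpC4) when libraries were left out; it was 415 without HpC3, 330 without pC1 and 443 without pC3. The cause of these shifts was not tested.

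Some directions reversed. On TPM as deposited, Tjp3 in HpC minus H was 0.58, Cldn2 in pC minus H 0.048 and Dsp in HpC minus pC -0.0095. Without HpC2, Gja1 in HpC minus pC was -0.32 and Dsp -0.079 (ranges with libraries left out in turn -0.32 to 0.98 and -0.079 to 0.73), and without HpC1 and HpC2 together Gja1 was -0.050. Tjp3, Cldn2 and Dsp follow the change of scale, which moved the median of all genes, and Gja1 and Dsp the removal of their highest library.

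The labels number the libraries of each group from 1, and a replicate block on that number gave 5, 45 and 39 members changed (HpC and pC, HpC and H, pC and H), with 573, 8184 and 8697 genes. Deviations of same-numbered libraries from their group means correlated at -0.046 to 0.084 across genes, so the numbers were not taken to pair the libraries. Under the block the call of Cdh17 in HpC minus H was lost (adjusted p = 0.0667) and Gjb2 in HpC minus pC passed (2.89, adjusted p = 0.0435).

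The files give no depth, so no counting error can be given for low members such as Cldn11 and Cldn10. With 3 or 4 libraries a group, a difference that did not pass is not shown to be absent.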
